A study of Mus musculus with 6 samples.

Results

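Molecular chaperones are the proteins that fold, hold, disaggregate or hand on other proteins. The genes described here are those whose symbol in the array's annotation begins with Hspa, Hspb, Dnaja, Dnajb, Dnajc, Cct or Bag and a digit, or with Hsp90, or is Hspd1, Hspe1, Hsph1 or Tcp1, without Hspg2 and Hspbap1. By this rule 100 of the 19200 spotted probes belong to 77 chaperone genes, of 13409 genes that are named on the array. The genes were chosen by symbol and not by their values. The Hspb11 protein (also called Ift25), which carries a chaperone symbol, is known as a part of the intraflagellar transport machinery.

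The tissue was white fat of the epididymal depot, from male C57BL/6J mice aged 12 weeks. One pool held equal amounts of RNA of 6 mice treated with CL-316,243, which activates the beta3-adrenergic receptor and so sets off lipolysis in fat cells, at 1 mg per kg body weight, and the other held RNA of 6 mice given saline. Both were taken 3 hr after treatment and co-hybridised to 6 two-colour arrays, with the CL-316,243 pool in channel 1 on arrays 1, 2 and 3 and in channel 2 on arrays 4, 5 and 6. These are 6 repeat hybridisations of 1 pool per treatment, so p-values measure the spread between arrays and say nothing of the spread between mice, and the number of arrays limits the precision.

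The values are log ratios of the 2 pools, read here as log2. The labels do not say which pool is the numerator, so "positive" or "higher" means higher in the numerator pool, and every direction below turns round together if that pool is the saline one. If the logs are natural ones, each value is 1.44 times as large on the log2 scale. The columns lacked values only in their last rows and did not line up row by row (rank correlations between arrays from -0.03 to 0.03 as deposited), so each column was first placed on probe numbers. After that, rank correlations over all probes averaged 0.28 within a dye orientation and 0.11 across orientations. Of 87 probes with a mean of at least 1 in size in both orientations, 86 had the same sign in both. The deposited ratios were read as running the same way on all arrays. The placement predicts each array from the others and starts from a positive correlation between all of them. The sign count is therefore partly built in and cannot by itself decide this reading. Results under the other reading, channel over channel, are given at the end. Array 2 kept the fewest probes, 64.6%, against 92.5% to 99.8% on the others. Of 12820 genes tested with limma, 389 (3.03%) had an adjusted p under 0.05.

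Other cell types in the pools bear on any bulk ratio. Of 6 tested markers of seminal vesicle and epididymis, organs that lie beside this fat depot, 5 were lower (Svs5 at -5.47 ± 0.48, SE, and Svs2 at -4.98 ± 0.41), with ratios from -5.47 to -0.0015 over the 6. Among 6 muscle markers Des was higher (0.90 ± 0.12) and the other 5 did not pass. Of the 6, 3 were above 0 and 3 below, with a median of -0.06. Of 6 adipocyte, 5 macrophage, 5 endothelial, 6 T and B cell and 7 male germ cell markers, 0 passed with limma, with 3, 1, 2, 1 and 1 at an unadjusted p under 0.05 and medians of 0.28, 0.06, -0.26, -0.13 and -0.07. Ratios hold no expression level, so which of these markers are near 0 cannot be read here, and the part of these tissues in the chaperone ratios was not tested.

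As background, Hsp70 proteins (the Hspa family) bind and release unfolded stretches of protein in a cycle driven by ATP. J-domain proteins (the Dnaj families) bring clients and start ATP hydrolysis, and the Hsp110 proteins (Hspa4, Hspa4l and Hsph1) and Bag proteins release ADP and reset the cycle. Hsp90 takes clients onward, small heat shock proteins (Hspb) hold unfolding proteins in a refoldable state, Hspd1 and Hspe1 form the folding chamber of mitochondria, and the Cct subunits with Tcp1 form the cytosolic chamber that folds actin and tubulin. Many of these genes are switched on by heat shock factor Hsf1, which binds repeats of GAA and its reverse TTC, and those of the endoplasmic reticulum by the unfolded protein response. Hspa8 is also known to carry some perilipins from the lipid droplet to the lysosome, a step that lets lipases reach the droplet.

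RefSeq promoter windows (GRCm38.p6, 250 bases before to 50 after the start of a transcript) were listed for 63 of the 77 genes; Hspa8 is not among them. The stretches below are given 5′ to 3′ on the gene's strand and end at the base before the RefSeq start, except that of Hspe1, which runs from 110 to 51 bases before it. Those of Hspa1a (chr17:34972157-34972286, minus strand) and Hspa1b (chr17:34959239-34959368, minus strand), the stress-inducible Hsp70 genes, are shown because both genes were spotted and their windows are near copies. Capitals mark the sequence GAANNTTC, which begins 104 bases before the start in both.
Hspa1a: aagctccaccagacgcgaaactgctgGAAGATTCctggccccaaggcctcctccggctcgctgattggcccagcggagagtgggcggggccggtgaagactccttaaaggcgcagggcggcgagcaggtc
Hspa1b: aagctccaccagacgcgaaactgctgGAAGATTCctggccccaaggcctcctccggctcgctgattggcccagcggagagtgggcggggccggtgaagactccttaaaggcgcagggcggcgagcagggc
The 2 stretches were identical at 129 of 130 bases, and the whole upstream windows at 247 of 250. The coding sequences of both genes are also known to be near copies, so the spots of one can bind RNA of the other and the 2 genes cannot be told apart on this array.

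Hspe1 (chr1:55088038-55088097, plus strand) and Dnajb6 (chr5:29735828-29735897, plus strand) are shown because their windows hold at least 3 alternating GAA and TTC units in a row; capitals mark the units, of which there are 4 in Hspe1 and 3 in Dnajb6. Hspa5 (chr2:34772000-34772089, plus strand) is shown for the endoplasmic reticulum stress element, CCAAT followed by CCACG 9 bases on, again in capitals.
Hspe1: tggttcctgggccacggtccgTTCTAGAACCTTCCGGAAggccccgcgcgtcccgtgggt
Dnajb6: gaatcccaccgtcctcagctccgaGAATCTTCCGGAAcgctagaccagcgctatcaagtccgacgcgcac
Hspa5: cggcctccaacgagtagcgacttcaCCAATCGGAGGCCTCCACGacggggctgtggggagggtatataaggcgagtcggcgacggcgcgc
The Hspe1 element lies in the stretch between Hspe1 and Hspd1, whose windows on opposite strands share 285 of 300 bases. Both strands of each window were searched. GAANNTTC or TTCNNGAA occurred in 17 of the 63 chaperone genes (27%) and in 17% of the 27025 genes with a window. The longer run of 3 alternating units (GAA, TTC and GAA, or TTC, GAA and TTC, each NN apart), every match of which contains the shorter motif, occurred in Dnajb6, Hspd1, Hspe1 and Hsph1 (4 of 63, 6.35%) and in 0.662% of all genes. The cAMP response element TGACGTCA occurred in 1 of 63, Dnajc27, and in 2.03% of all genes. The stress element occurred in Dnajc3, Hsp90b1 and Hspa5 (3 of 63, 4.76%) and in 0.137% of all genes. A match describes the letters of the window and is not a measured binding site.

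Of the 77 chaperone genes, 72 had values on at least 2 arrays of each orientation and were tested, 39 on 6 arrays, 29 on 5 and 4 on 4. At an adjusted p under 0.05, 5 of the 72 (6.94%) were called, all 5 higher, against 3.03% of all genes in either direction and 1.88% in the higher one. At an unadjusted p under 0.05 there were 24 of 72 (33.3%), 19 higher and 5 lower, against 18.4% of all genes, 8.92% higher and 9.46% lower. The median ratio of the 72 was 0.09, against -0.01 over all genes tested, with an interquartile range from -0.11 to 0.29 against -0.15 to 0.13. Ratios above 0 were found for 46 of the 72 (63.9%), against 47.7% of all genes. On every array that measured them 15 (20.8%) were positive and 4 (5.56%) negative, against 6.93% and 7.01% of all genes. Most chaperone ratios were small: 45 of 72 were under 1.2-fold in size and 2 were at least 2-fold. In a bulk pool, fewer cells of a type and less RNA per cell cannot be told apart.

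**Figure D1:**
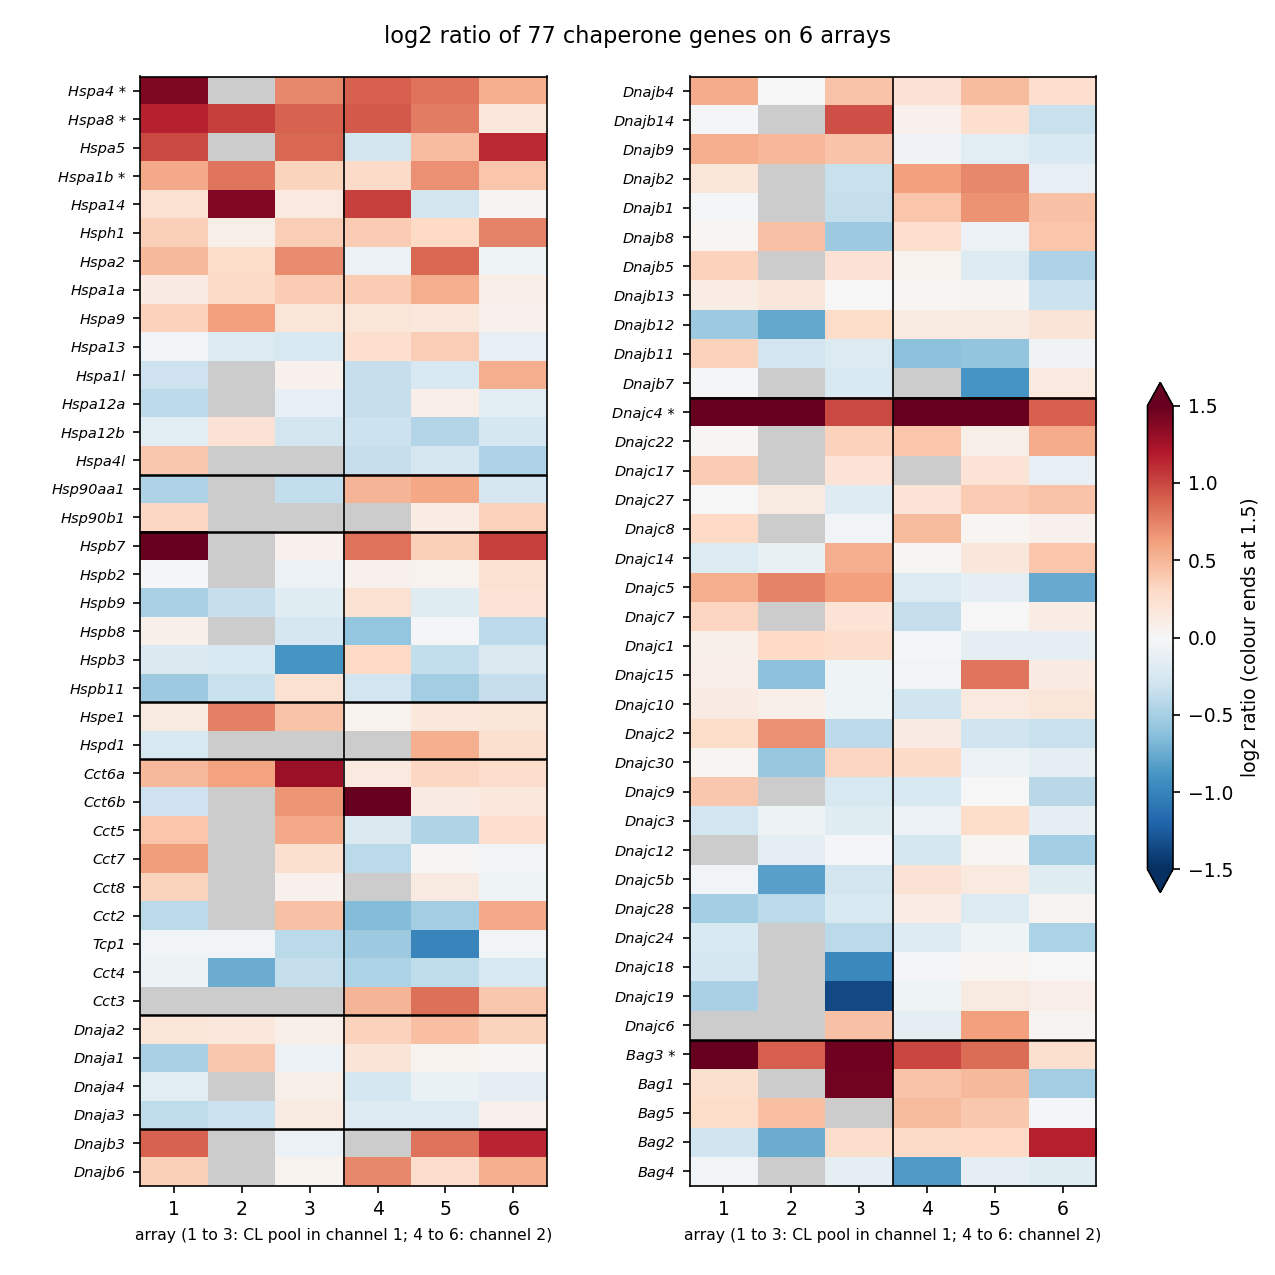
Log2 ratio of each of the 77 chaperone genes (rows, grouped by family and separated by black lines) on arrays 1 to 6 (columns; the thin line parts the dye orientations); grey marks no placed value and an asterisk an adjusted p under 0.05. The rows of Dnajc4, Bag3, Hspa4, Hspa8 and Hspa1b are positive on every array measured, while most other rows hold both signs.

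The Hsp70 and Hsp110 genes gave 3 of the 5 calls. Of 13 tested genes of this family 8 had an unadjusted p under 0.05 with limma and 10 had ratios above 0. Their median was 0.36, with a range from -0.21 to 0.91. Beside this and the other families, 3.03% of all genes tested were called. An unadjusted p under 0.05 was found for 18.4% of all genes and a ratio above 0 for 47.7%. Hspa8, the constitutive cytosolic Hsp70, had 1.15, 1.04, 0.89, 0.92, 0.77 and 0.16 on arrays 1 to 6. It was positive on all 6, with array 6 far below the rest, and the fitted ratio was 0.82 ± 0.12 (SE), 1.77-fold, with an adjusted p of 0.00798.
Hspa4, an Hsp110 protein that exchanges the nucleotide of Hsp70, had 1.40 and 0.72 on arrays 1 and 3 and 0.90, 0.81 and 0.55 on arrays 4, 5 and 6. It had no placed value on array 2, and its ratio was 0.91 ± 0.14, 1.88-fold (adjusted p of 0.0126, 5 arrays). Hspa1b, a stress-inducible Hsp70, had 0.57, 0.80, 0.33, 0.29, 0.68 and 0.42. All 6 values were positive and lay within a narrow span, with a ratio of 0.51 ± 0.11, 1.43-fold (adjusted p of 0.0387). This call rests on 1 spot. Hspa1a, which cannot be told apart from Hspa1b on this array, was spotted 17 times and did not pass with limma (0.30 ± 0.11, adjusted p of 0.167).
Without array 5, Hspa8 (0.78) and Hspa4 (0.89) missed the threshold at adjusted p of 0.0519 and 0.0691; Hspa4 could not be fitted without array 1 or 3. Hspa1b missed it without array 1, 2, 4, 5 or 6, with ratios from 0.46 to 0.56, and passed without array 3 (0.57).

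Hspa1a was spotted 17 times under 1 sequence accession, which makes it the member with the most repeated measurements. Of its 93 single values 74 (79.6%) were above 0. The median over its spots was 0.21, 0.35, 0.39, 0.41, 0.48 and 0.11 on arrays 1 to 6, positive on each, while single spots reached -0.69 on array 2 and 1.44 on array 6. Of 16 spots with enough values all 16 had ratios above 0, from 0.06 to 0.83 with a median of 0.26 and an SD over spots of 0.22. Only 3 of the 16 passed as single probes (0.52, 0.53 and 0.83). As 1 gene, the mean of all its spots, Hspa1a had 0.12, 0.29, 0.38, 0.38, 0.54 and 0.10 on the 6 arrays and a ratio of 0.30 ± 0.11, 1.23-fold, which did not pass (adjusted p of 0.167). The spots share their accession and their RNA, so they show how far 1 spot strays and are not separate genes. An SD of 0.22 between spots of 1 gene stands beside each single-spot ratio given here.

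**Figure D2:**
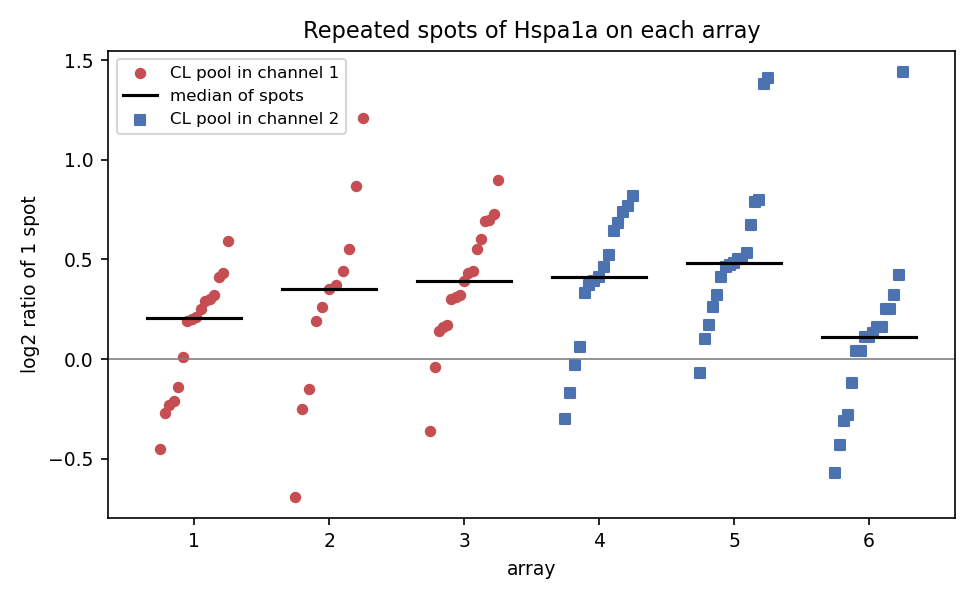
Log2 ratio of each placed Hspa1a spot (points) on arrays 1 to 6, with the median per array as a bar; circles have the CL-316,243 pool in channel 1 and squares in channel 2. The medians run from 0.11 on array 6 to 0.48 on array 5, and single spots spread by over 1 log2 unit within each array.

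The other Hsp70 and Hsp110 genes did not pass. Hspa5 (BiP), the Hsp70 of the endoplasmic reticulum whose stress element is printed above, had 0.99 and 0.86 on arrays 1 and 3 and -0.28, 0.46 and 1.12 on arrays 4, 5 and 6. Array 4 alone was negative, and the ratio was 0.68 ± 0.19 (adjusted p of 0.104), past the threshold only without that array (0.86) among the arrays left out in turn. Hsph1, a heat-inducible Hsp110 whose window holds the 3-unit repeat, was positive on all 6 arrays, from 0.09 to 0.74, with a ratio of 0.37 ± 0.11 (adjusted p of 0.102).
Hspa9, the mitochondrial Hsp70, was also positive on all 6, from 0.06 to 0.61, with a ratio of 0.26 ± 0.10 (adjusted p of 0.226). Hspa14, which works at the ribosome, had 0.43 ± 0.20 and Hspa2, best known from male germ cells, 0.36 ± 0.14. The lowest ratios were those of Hspa12b (-0.21 ± 0.11), an atypical member known from endothelial cells, Hspa12a (-0.20 ± 0.12) and the testis gene Hspa1l (-0.07 ± 0.16), none of which passed. Hspa13 lay at 0.00087. Hspa4l was not tested: it had 0.41 on array 1 and -0.35, -0.25 and -0.46 on arrays 4, 5 and 6.

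The J-domain genes held the highest ratio of all 72. Dnajc4, a J-domain protein whose clients are little known, had 2.52, 1.61, 0.99, 1.93, 1.99 and 0.90 on arrays 1 to 6. All values were near 1 or above it in both orientations, and the ratio was 1.66 ± 0.21, 3.15-fold (adjusted p of 0.00338). It stayed past the threshold without any one array, between 1.45 and 1.84. It was read from 1 probe, and RefSeq places the predicted gene Gm35838 over Dnajc4, with Nudt22 and Vegfb within 1000 bases; which strand the spot binds is not stated in the labels. The other 20 tested Dnajc genes lay between -0.43 and 0.27, and the family median was 0.03, with 12 of 21 above 0.

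Among those 20 genes, Dnajc19, a subunit of the mitochondrial import motor, had the lowest ratio, -0.43 ± 0.15 (adjusted p of 0.168). Its values were -0.49 and -1.35 on arrays 1 and 3 and -0.07, 0.14 and 0.10 on arrays 4, 5 and 6, so array 3 carried most of it. Dnajc18 followed at -0.31 ± 0.14 and Dnajc24, an enzyme partner in diphthamide synthesis, at -0.28 ± 0.12, negative on all 5 arrays that measured it. Dnajc22 had 0.27 ± 0.13 and was positive on all 5. Dnajc6, which strips clathrin from vesicles with Hspa8, was not tested and had 0.44, -0.13, 0.62 and 0.04 on arrays 3 to 6.

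With limma 0 of 13 Dnajb and 0 of 4 Dnaja genes passed, at medians of 0.16 and -0.04; 3 and 1 had an unadjusted p under 0.05. Dnajb3, a J-domain gene of male germ cells, was highest at 0.68 ± 0.18 on 4 arrays (adjusted p of 0.103), with 0.88 and -0.09 on arrays 1 and 3 and 0.81 and 1.14 on arrays 5 and 6. Dnajb6, which holds back protein aggregation, was positive on all 5 arrays, from 0.05 to 0.72, with a ratio of 0.35 ± 0.13 (adjusted p of 0.186). Dnajb4 had 0.32 ± 0.11 (adjusted p of 0.16) as the mean of probes that disagreed, at 0.82 ± 0.15 (adjusted p of 0.0165 over all probes) and -0.17 ± 0.11. Dnajb1, the main heat-inducible partner of Hspa1a, had 0.16 ± 0.12, and Dnaja1, the partner of Hspa8 in the cytosol, 0.01 ± 0.13. Dnaja2 was positive on all 6 arrays at 0.26 ± 0.09 (adjusted p of 0.186).

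In the Bag family, 1 of 5 genes passed with limma, against 3.03% of all genes, and 3 had an unadjusted p under 0.05, against 18.4%. Ratios above 0 were found for 4 of 5, against 47.7% of all genes, with a median of 0.32. Bag3, which pairs Hsp70 with the small heat shock protein Hspb8 to send damaged proteins to autophagy, had 1.70, 0.90, 1.46, 1.00, 0.84 and 0.24 on arrays 1 to 6. It was positive on all 6, with the highest values on arrays 1 and 3 and the lowest on array 6. Its ratio was 1.02 ± 0.14, 2.03-fold (adjusted p of 0.00597), and it passed without any one array, at 0.94 to 1.14. Hspb8 itself had -0.21 ± 0.13 and did not pass.
Bag1 had 0.49 ± 0.21, carried by 1.45 on array 3, and Bag5 had 0.32 ± 0.13, positive on 4 of 5 arrays (adjusted p of 0.27 and 0.227). Bag4, which silences TNF receptor signalling, had -0.24 ± 0.14, and Bag2, an inhibitor of the ubiquitin ligase Stub1, 0.16 ± 0.16.

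The 5 called genes held 29 single values, all 29 above 0. The genes were called on these same values, so the shared sign follows in part from the selection. Array 6 gave the lowest value of 4 of the genes and array 1 the highest of 4. By fitted ratio the order was Dnajc4, Bag3, Hspa4, Hspa8 and Hspa1b. Bag3, Hspa4 and Hspa8 lay within 1 standard error of their neighbours in this order, while Dnajc4 stood above Bag3 and Hspa1b below Hspa8 by more than that; differences between genes were not tested.

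**Figure D3:**
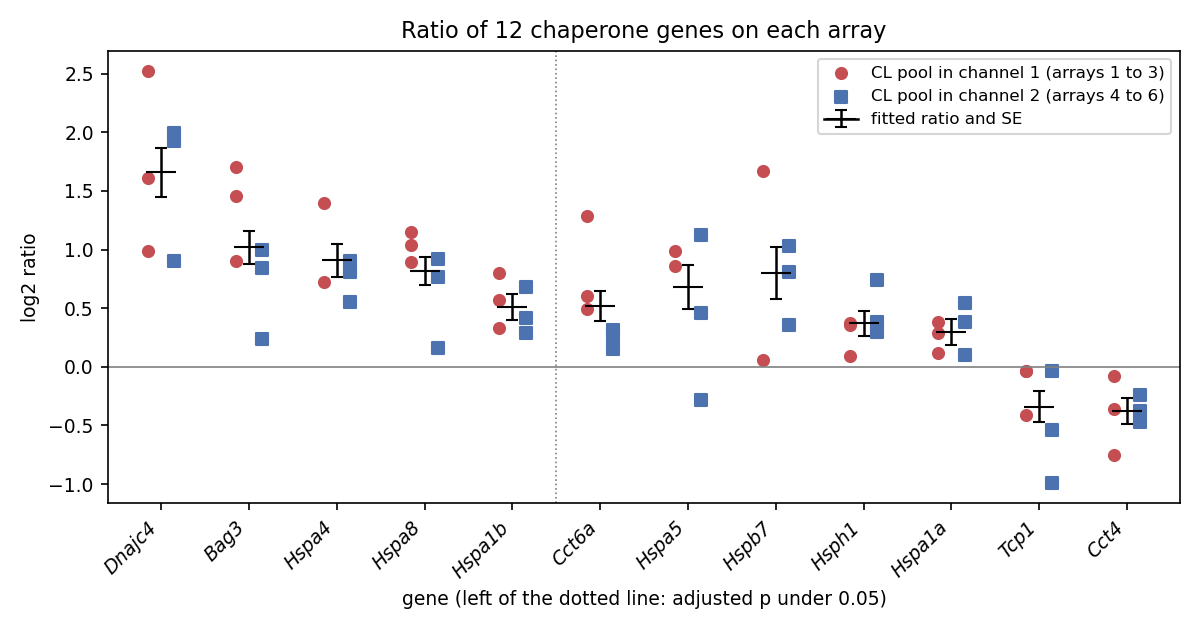
Log2 ratio on each array (red circles, CL-316,243 pool in channel 1; blue squares, channel 2) with the fitted ratio and its SE in black, for the 5 called genes left of the dotted line and 7 that did not pass. The points of Dnajc4 lie between 0.90 and 2.52, and all points of the called genes are above 0, while Hspa5 has 1 point at -0.28 and Cct4 and Tcp1 lie below 0.

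The chaperonin genes went both ways and 0 of 8 tested passed with limma, 3 at an unadjusted p under 0.05 (5 ratios above 0, 3 below, median 0.13). Cct6a, the zeta subunit, had 0.49, 0.60, 1.29, 0.15, 0.31 and 0.26 on arrays 1 to 6. It was positive on all 6, with a ratio of 0.52 ± 0.13, 1.43-fold (adjusted p of 0.0622). Cct4, the delta subunit, was negative on all 6 arrays, with -0.08, -0.75, -0.36, -0.47, -0.38 and -0.24 and a ratio of -0.38 ± 0.11 (adjusted p of 0.116). Both of its probes were below 0, at -0.23 and -0.41.
Tcp1, the alpha subunit, was also negative on all 6, from -0.99 to -0.04, with a ratio of -0.34 ± 0.13 (adjusted p of 0.218). Cct6b, the testis form of the zeta subunit, had 0.47 ± 0.29, with 2.03 on array 4 and values from -0.31 to 0.66 on the other 4 arrays. Cct5, Cct7 and Cct8 lay at 0.18, 0.15 and 0.12 and Cct2 at -0.09 ± 0.21. Cct3 was not tested and had 0.51, 0.83 and 0.41 on arrays 4, 5 and 6. The subunits of 1 complex therefore had ratios from -0.38 to 0.52, none past the threshold.

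Of 6 small heat shock genes 0 passed with limma, 2 at an unadjusted p under 0.05; 2 were above 0 and the median was -0.17. Hspb7, known from heart and other muscle, stood apart with 1.67 and 0.06 on arrays 1 and 3 and 0.81, 0.36 and 1.03 on arrays 4, 5 and 6. It was positive on all 5 arrays but ranged widely, and its ratio of 0.80 ± 0.22 did not pass (adjusted p of 0.101). Of the 6 muscle markers Des was higher, as given above, but 3 were below 0 and their median was -0.06. The part of muscle in Hspb7 was not tested. The muscle genes Hspb2 and Hspb3 had 0.03 ± 0.11 and -0.27 ± 0.13, and Hspb9 of male germ cells -0.13 ± 0.11. Hspb11 had -0.30 ± 0.12 (adjusted p of 0.231) as the mean of a probe at -0.62 ± 0.12 (adjusted p of 0.0215 over all probes) and one at 0.02 ± 0.14.

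Hsp90aa1, the inducible cytosolic Hsp90, had -0.46 and -0.37 on arrays 1 and 3 and 0.51, 0.58 and -0.25 on arrays 4, 5 and 6. The values split by orientation apart from array 6, and the ratio was -0.07 ± 0.15. Hsp90b1, the Hsp90 of the endoplasmic reticulum, was not tested and had 0.31, 0.11 and 0.35 on arrays 1, 5 and 6. Hspe1, the mitochondrial co-chaperonin, was positive on all 6 arrays, from 0.05 to 0.75, with a ratio of 0.29 ± 0.11 (adjusted p of 0.212). Hspd1, its partner chamber, shares the promoter stretch printed above and had -0.24, 0.55 and 0.24 on arrays 1, 5 and 6, too few to test.

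**Figure D4:**
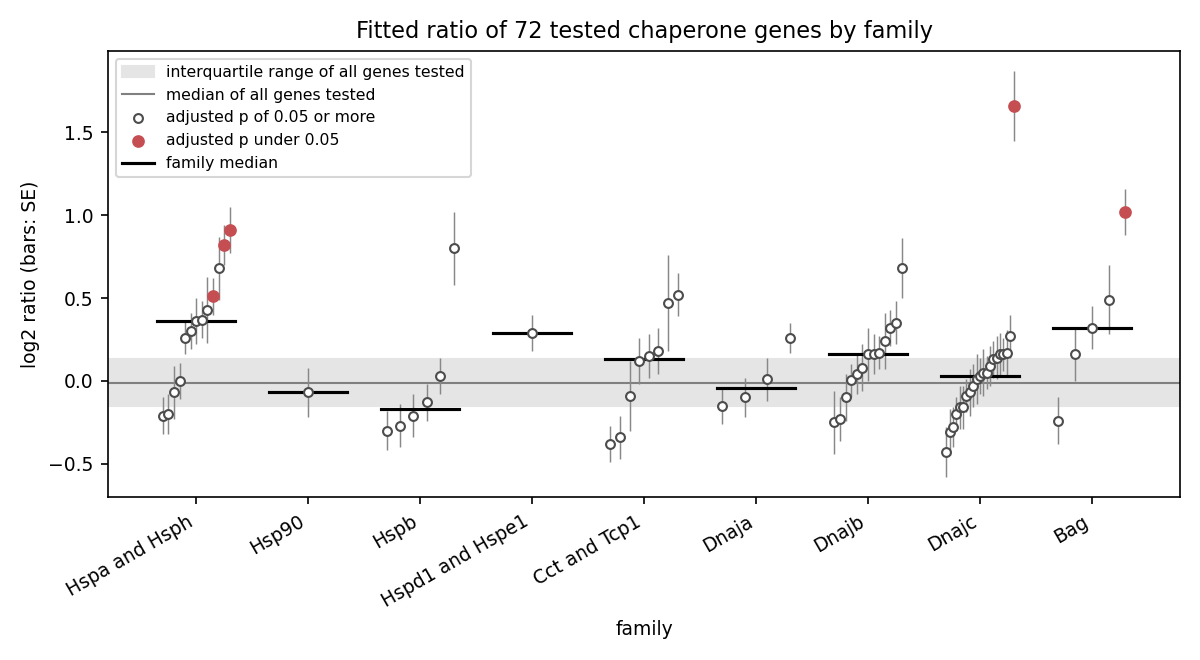
Fitted log2 ratio of the 72 tested genes by family (points, with SE), with the family median as a black bar and the interquartile range of all 12820 genes (-0.15 to 0.13) as a grey band; red marks an adjusted p under 0.05. The Hspa and Hsph median of 0.36 lies above the band and the Hspb median of -0.17 below it, and Dnajc4 stands alone over a Dnajc median of 0.03.

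The genes were also grouped by where or when their proteins are known to work; over all genes tested, 3.03% were called, 18.4% had an unadjusted p under 0.05 and 47.7% were above 0. Of 11 genes that respond to heat shock 10 were tested, 3 were called (Bag3, Hspa8 and Hspa1b), 6 had an unadjusted p under 0.05, 8 were above 0 and the median was 0.29. This list holds Hspa8, which is mainly constitutive, and without it 2 were called. Of these, Hspa1b rests on 1 spot and cannot be told apart from Hspa1a, which did not pass with limma (0.30, adjusted p of 0.167). Of 8 genes that exchange nucleotide on Hsp70, 7 were tested, 2 were called (Bag3 and Hspa4), 5 had an unadjusted p under 0.05, 6 were above 0 and the median was 0.37. The 7 tested genes of the endoplasmic reticulum, 6 of mitochondria and 8 of testis had 0 calls with limma, with 1, 3 and 2 at an unadjusted p under 0.05 and medians of 0.03, 0.01 and 0.04. The 16 tested genes whose windows hold GAANNTTC or TTCNNGAA had a median of 0.23, with 12 above 0, and the 42 tested genes with a window but no such match 0.10, with 27 above 0. These groups overlap and were described by counts only.

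By single probe, 94 of the 100 were tested and 10 (10.6%) passed, 9 higher and 1 lower, against 3.83% of 18473 probes. Repeat spots of Hspa1a made up 16 of the tested and 3 of the passing probes. The share by probe thus counts 1 gene several times. Of 7 genes with 2 tested probes, 3 had both on the same side of 0. Dnaja2, for one, had 0.45 and 0.06, and Dnajc1, a J-domain protein of the endoplasmic reticulum, -0.15 and 0.25. For the 64 tested genes read from 1 probe, no such check could be made. The called genes Dnajc4, Bag3, Hspa4, Hspa8 and Hspa1b are all among these 64.

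Some members differed between the dye orientations, but no difference passed. The lowest adjusted p of the orientation term among the 72 genes was 0.379, and 1 of 12820 genes (0.0078%) passed. For Dnajc5, the cysteine string protein of secretory vesicles, the mean was 0.63 on arrays 1 to 3 (CL-316,243 pool in channel 1) and -0.37 on arrays 4 to 6 (channel 2). All 3 values of the first orientation were positive and all 3 of the second negative. Dnajb9, a J-domain protein of the endoplasmic reticulum, showed the same pattern (0.49 and -0.15), and Dnajc1 with 0.21 and -0.11. Dnajb1 (-0.19 and 0.51) and Hspb2 (-0.06 and 0.11) had the opposite one. The called genes, which were called on the fit over both orientations, had positive means in both. These were 1.71 and 1.60 for Dnajc4, 1.35 and 0.69 for Bag3 and 1.06 and 0.75 for Hspa4. Hspa8 had 1.03 and 0.62, and Hspa1b 0.56 and 0.46. Fitted on arrays 1 to 3 alone, Bag3 and Hspa8 passed, and on arrays 4 to 6 alone, Dnajc4 did.

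**Figure D5:**
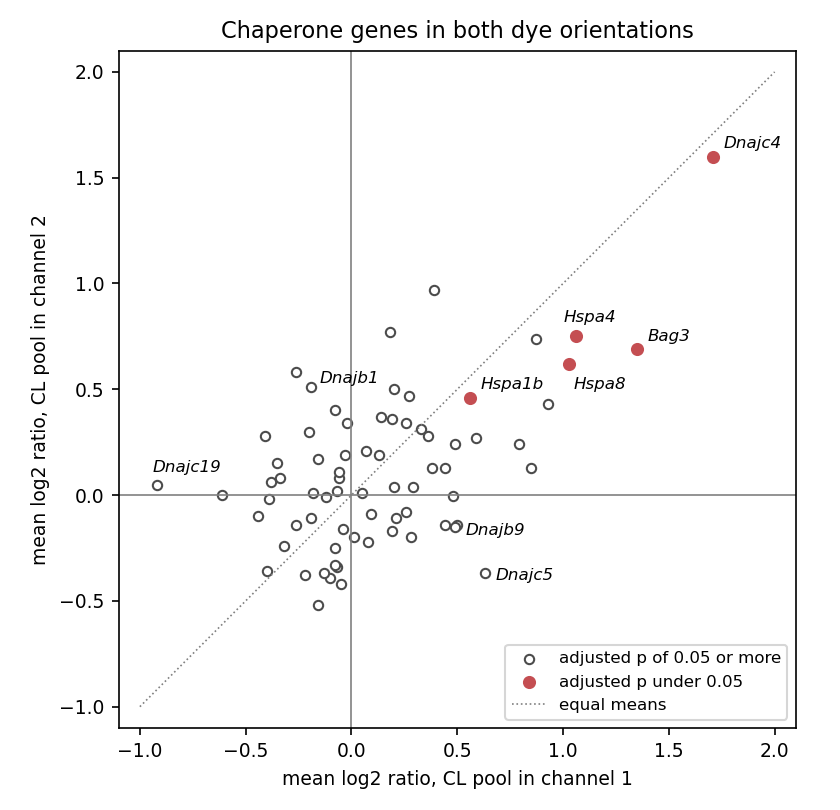
Mean log2 ratio of each tested chaperone gene over arrays with the CL-316,243 pool in channel 1 (horizontal) and in channel 2 (vertical), with called genes in red and a dotted line of equal means. The 5 called genes lie in the upper right field, near the line for Dnajc4 and Hspa1b and below it for Bag3, Hspa4 and Hspa8, while Dnajc5 (0.63 and -0.37) and Dnajb9 (0.49 and -0.15) lie in the lower right.

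Genes that work with these chaperones but fall outside the symbol rule were read from 6 lists, in which 2 of 71 tested genes passed, both higher, against 3.03% of all genes in either direction, so the share of calls was near that of all genes. Of 15 co-chaperones and partners 1 passed and 6 were above 0 (median -0.03). That was Ptges3 (p23), which locks Hsp90 onto its clients, with 0.68, 0.19, 0.57, 0.36, 0.70 and 0.43 and a ratio of 0.49 ± 0.11 (adjusted p of 0.047). It was positive on all 6 arrays, but missed the threshold without array 1, 3, 4, 5 or 6. Ttc4, another partner of Hsp90, had -0.47 ± 0.13, negative on all 5 arrays (adjusted p of 0.0865).

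Of 25 genes of folding and stress response in the endoplasmic reticulum 1 passed and 16 were above 0 (median 0.02). Creld2, a secreted stress protein of this compartment, had 1.23, 0.83, 0.64, 0.41, 0.23 and -0.03 and a ratio of 0.55 ± 0.12 (adjusted p of 0.038). Its means were 0.90 with the CL-316,243 pool in channel 1 and 0.20 in channel 2, and it passed without array 3 only. Manf, a related secreted factor, had 0.62 ± 0.15 (adjusted p of 0.0696), positive on all 5 arrays.
The 13 tested genes of prefoldin and of partners of the cytosolic chamber had 0 calls with limma. At an unadjusted p under 0.05 there were 4, against 18.4% of all genes. Their ratios were above 0 for 1 and below 0 for 12, against 47.7% of all genes above 0, with a median of -0.28. Pdcl, which helps that chamber fold G protein subunits, had -0.40 ± 0.13 and Tbca, a tubulin cofactor, -0.34 ± 0.13. The 3 heat shock factors had 0 calls, also at an unadjusted p under 0.05, with Hsf4 at 0.20 ± 0.11 and Hsbp1, which binds Hsf1, at -0.22 ± 0.14. Among 10 mitochondrial chaperones and proteases 0 passed with limma and 1 at an unadjusted p under 0.05 (median 0.10), with Clpb, a disaggregase, at 0.42 ± 0.23 and Grpel1, the nucleotide exchange factor of Hspa9, at 0.37 ± 0.15. Of 5 small stress partners 0 passed with limma and 2 at an unadjusted p under 0.05 (median 0.12), with the lens and muscle chaperone Cryab at -0.52 ± 0.16, negative on all 5 arrays, and the autophagy receptor Sqstm1, which acts with Bag3, at 0.49 ± 0.14, positive on all 6.

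Among 7804 genes outside the rule with values on all 6 arrays, those nearest to Hspa8 by Euclidean distance over the 6 log2 ratios were Scx (0.30), Dyrk2 (0.38), Nop56 (0.39), Timm8a1 (0.41) and Bcar3 (0.43). Each had its lowest value on array 6, from -0.15 to 0.34, as Hspa8 did, and ratios between 0.70 and 0.85. They were picked for likeness over the same 6 hybridisations, so the list is a description.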

How the data were processed

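Per the labels' protocols, cDNA of each RNA pool carried fluorescein (Cy3) or biotin (Cy5), was developed with tyramide signal amplification and scanned, and spots were quantified with QuantArray. The deposited table holds the authors' log ratios after uniform scaling of the dyes and LOWESS, read here as log2, per the labels. The numerator pool, log base, background correction and spot filter are not stated in the labels. The labels' description also writes the agonist as CL316,246; the titles' CL-316,243 is used. Spot intensities were not used, which leaves the signal behind each ratio unknown.

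To put values on probe numbers (1 to 19200), a hidden Markov model was run on each column in which spots can only be lost (normal scores clipped at 3, predicted from the other arrays in 3 rounds; a lost spot is followed by another with probability 0.5). Of 4 starting points the one with the highest likelihood was kept, and values with a posterior of at least 0.95 were used. This step was chosen after seeing the data, was not foreseen in the design, and raises the agreement between arrays because it uses it. The placement was also run on simulated data, with correlations and lost spots taken from its own result. The fit was run on simulated ratios that did not pass through the placement. Neither run can show how far the placement raises agreement or lowers p-values.

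Of 19200 probes, 14711 have 1 symbol in the platform annotation, 6 several and 4483 none; 14416 matched RefSeq by Entrez identifier, with 0 symbols changed. Gene values are means of a gene's probes. The ratios, on the log2 scale, went into limma 3.58.1 (lmFit, eBayes, R 4.3.3) with an intercept and dye orientation (plus or minus 1) over all genes with values on at least 2 arrays per orientation; p-values were adjusted over all of them (Benjamini-Hochberg) at 0.05. Slide lots differ for every array, which leaves no test of the lot. The arrays carry no shared replicate numbers.

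Members, gene lists and markers were chosen with earlier results of these data known. Genes were named if called, if among the 3 highest or 3 lowest ratios of a family, or, in the partner lists, if called or among the 2 largest in size; further members were named to account for the families and chosen after their values were seen. Alternatives covered the placement, the model, scaling, weights, probe choice, orientation and leaving out each array.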

Additional observations from a re-analysis of the deposited data

Results flagged for a closer look

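Of 42 chaperone and partner genes examined for 1 array far from the rest (Dixon's ratio), 3 had one, and chance gives about 1 in 20. Bag4 had -0.85 on array 4, against -0.18 to -0.04 on the other 4 arrays that measured it. Dnajc18 had -0.97 on array 3, against -0.26 to 0.03 on the others. Hspb11 had 0.23 on array 3, against -0.55 to -0.29 on the other 5. None of the 3 genes passed the test, and the cause was not tested.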

How the results depend on the processing

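The same 5 chaperone genes were called with a placement posterior of 0.99 or 0.5, without the orientation term, with scaling between arrays and with 1 probe per gene, and also from the second best placement start, an alternative chosen after seeing the data. With values on all arrays only, 39 members were tested and 5 called, 4 of them shared. Cct6a was added, and Hspa4, without a value on array 2, was not among those tested. Array weights gave 10 called genes, adding Cct6a, Dnajb3, Dnajb4, Hspa5 and Hspb7 (all genes: 918). The other settings lowered the count: 0 with rows as deposited, 2 with the CL-316,243 pool in channel 1 only (all genes: 54), 1 with it in channel 2 only (204), and 0 for the orientation term read as the effect. Without each array in turn it was 2 to 5 (123 to 365 over all genes), 3 without array 1 and 2 without array 5. Without array 1 or array 3 only 40 members could be tested, Hspa4 not among them, against 72 in the main fit. Called probes were 10, against 0 as deposited, 0 and 5 with the pool in channel 1 and channel 2 only, 0 for the orientation term and 2 to 8 without 1 array (4 without array 1, 2 without array 5). Called partner genes were 2, against 0 as deposited, 1 from the second best start, 1 without the orientation term, 8 with array weights, 0 in either orientation alone, 0 for the orientation term and 0 to 2 without 1 array. The members' median of 0.09 became 0.01 as deposited, 0.13 from the second best start, 0.05 with values on all arrays only, 0.05 with 1 probe per gene, -0.04 for the orientation term and 0.05 to 0.10 without 1 array. The cause of these shifts was not tested.

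Over 42 named genes and 593 single values under alternatives other than the orientation reading, 538 kept direction and side of the threshold, 31 lost the call, 10 gained one and 14 changed sign. Those that changed sign were Cct5 (-0.14), Dnajc19 (0.05), Dnajc18 (0.00048), Hsp90aa1 (0.28) and Grpel1 (-0.10) with the pool in channel 2 only, Cct2 (0.01) and Hspb2 (-0.06) in channel 1 only, Hsp90aa1 without the orientation term (0.0025), Hspb11 with 1 probe (0.02), Hsbp1 from the second best start (0.19), Cct2 (0.02) and Hspa1l (0.01) without array 4, and Hsp90aa1 (0.06) and Hspb2 (-0.0025) without array 6; none of these genes was called. If the deposited ratio were channel over channel and not pool over pool, the orientation term would be the effect: the called genes would then stand at -0.33 (Bag3), -0.05 (Dnajc4), -0.05 (Hspa1b), -0.15 (Hspa4) and -0.21 (Hspa8), and 0 would pass. Others that change sign under that reading are Bag1 (-0.36), Bag5 (-0.04), Cct6a (-0.28), Cct5 (-0.32), Cct4 (0.02), Dnajc19 (0.49), Dnajc18 (0.31), Dnajc24 (0.04), Hsp90aa1 (0.35), Hspa5 (-0.25), Hspa12a (0.06), Hspa1l (0.06), Hspb7 (-0.07), Hspb3 (0.17), Hspe1 (-0.16), Hsf4 (-0.16), Grpel1 (-0.47), Creld2 (-0.35), Manf (-0.17), Cryab (0.0049) and Sqstm1 (-0.10).

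No paired analysis was possible because the arrays carry numbers 1 to 6 with none shared between orientations. One pool per treatment means that no value here speaks to variation between mice. Levels and signal over background are unknown, and array 2 contributes to 41 of the 77 genes.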
